A study of Homo sapiens with 4 samples.

Results

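The BCL2 family, the caspases and the death receptor arm of apoptosis were followed in KMS11, an established myeloma line with the t(4;14) translocation (myeloma is a malignancy of plasma cells). The 31 genes were chosen by symbol from the deposited gene table, among 62069 genes in all, and BAX, BBC3, FAS and TNFRSF10B, which p53 drives, were left out by that choice. Control libraries (n = 2, genotype Control) were set against libraries labelled NSD2 Knockdown (n = 2, titled shM2). Cells of both groups were infected with lentivirus, with polybrene added to 10 µg/mL, were moved to normal medium after a day and were collected 72 h later. NSD2 encodes a histone methyltransferase, and in t(4;14) cells immunoglobulin enhancers drive it. The labels name 1 cell line and 1 knockdown construct. They leave unsaid whether libraries of a group are separate cultures, and p-values then measure only the spread between these libraries, which may be technical. Values are given for library 1 and then library 2 of each group, the controls first.

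Apoptosis runs along a mitochondrial arm and a receptor arm, which meet at the caspases. In the mitochondrial arm, BH3-only proteins sense damage or lack of growth signals and bind the survival proteins of the BCL2 family. Once these are occupied, BAK and its relatives open the outer mitochondrial membrane and cytochrome c assembles APAF1 and caspase-9 into the apoptosome. In the other arm, ligands such as TRAIL bind death receptors, which recruit FADD, caspase-8 and caspase-10, with the CFLAR protein (FLIP) as their brake. XIAP blocks active caspases, and DIABLO and HTRA2, released from mitochondria, relieve that block. Plasma cells and myeloma cells are known for their dependence on the survival protein MCL1.

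Total fragments ranged from 46728940 to 55059566 per library. Of 10 plasma cell markers, 8 were at 1 CPM (fragments as counts per 1e6 of the TMM-scaled library) or more in every library, and the summed level of the list was 8957 to 8986 CPM in the control libraries and 8232 to 9074 CPM in the others. CD38 and CD27 were the exceptions, and JCHAIN made up most of the sum. Of the 10 markers, SLAMF7 (237 and 272 CPM versus 110 and 129 CPM, log2 fold change -1.09, adjusted p = 9.52e-04) and the sparse CD38 (1.54 and 0.6999 CPM versus 0.2895 and 0.0369 CPM, adjusted p = 0.0284) fell. CD38 also differed between library numbers, with number 2 below number 1 (log2 ratio -1.40, adjusted p = 0.0265 by the edgeR test). IRF4 was at 597.6 and 697.5 CPM versus 469.0 and 525.4 CPM (log2 fold change -0.38) and missed the threshold (adjusted p = 0.081). XBP1 lay above the controls in both knockdown libraries (0.25), also without passing (adjusted p = 0.209). The summed level of 6 B cell markers was 41.6 to 44.1 CPM in the control libraries and 57.5 to 65.2 CPM in those labelled knockdown, nearly all of it from CD79B, which rose (log2 fold change 0.55, adjusted p = 0.0127), while MS4A1 had 1 fragment at most in any library. T and NK cell markers summed to 3.88 to 4.47 CPM in the controls and 2.63 to 2.73 CPM in the others, with CD3D at 0 in all 4. Nearly all of that sum came from CD3E (4.33 and 3.65 CPM versus 2.61 and 2.56 CPM). The log2 fold change of CD3E, -0.63, missed the threshold (adjusted p = 0.084 by the edgeR test). Myeloid markers summed to 2.00 to 2.67 CPM in the controls and 1.61 to 1.77 CPM in the others. Stromal and kidney packaging line markers summed to at most 1.17 CPM per list in any library. The part of these markers in the values of the apoptosis genes was not tested. NSD2 itself stood at 1121 and 1471 CPM in the controls versus 919 and 1156 CPM. Number 2 was above number 1 by a log2 ratio of 0.36 (adjusted p = 0.0335 by the edgeR test), a comparison in which 3.54% of all genes were called. Within each number the knockdown library was the lower. The groups overlapped and NSD2 missed the threshold (log2 fold change -0.32, SE 0.15, adjusted p = 0.244 by the quasi-likelihood test of edgeR, and 0.02 on the log2 scale with the GC and length terms described with the methods), so the other group carries the name its label gives. NSD2 passed when control library 1 (-0.50, adjusted p = 0.0196) or knockdown library 2 (-0.50, 0.0268) was left out.

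Of the 31 apoptosis genes, 28 passed the filter on low counts and 2 fell in the libraries labelled NSD2 knockdown, XIAP, which encodes a caspase inhibitor, and CASP10, which encodes an initiator caspase. None rose, and 26 did not pass the test at an adjusted p below 0.05. XIAP was 28.3% lower and CASP10 26.2% lower. Across all 17172 genes tested, 5.93% were called in either direction, 4.19% as lower and 1.74% as higher, so 2 of 28 is close to the share over all genes. The whole table held 299 higher and 719 lower genes. With terms for GC content and exonic length, added after the data were seen, it held 668 higher and 619 lower.

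The log2 fold changes of the 28 genes ran from -0.48 to 0.41 with a median of -0.05, and all 28 lay within 0.5 of zero on the log2 scale, against 83.8% of all genes tested and a median of 0.00. The 28 leave out the sparsest genes, as the lowest of them per kb, DIABLO, is at the 24.4 percentile of all genes tested. The part of level in this contrast was not tested. At an unadjusted p below 0.05 there were 6 of 28, and 3865 of all 17172 genes tested, a similar share. The values of the groups overlapped in 9 of the 28 genes, and of the others 12 had both knockdown libraries below both controls and 7 had both above. Over all genes tested the groups did not overlap in 53.2%, with 26.2% below and 27% above. In bulk RNA, fewer cells that express a gene and less of its RNA per cell cannot be told apart.

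**Figure D1:**
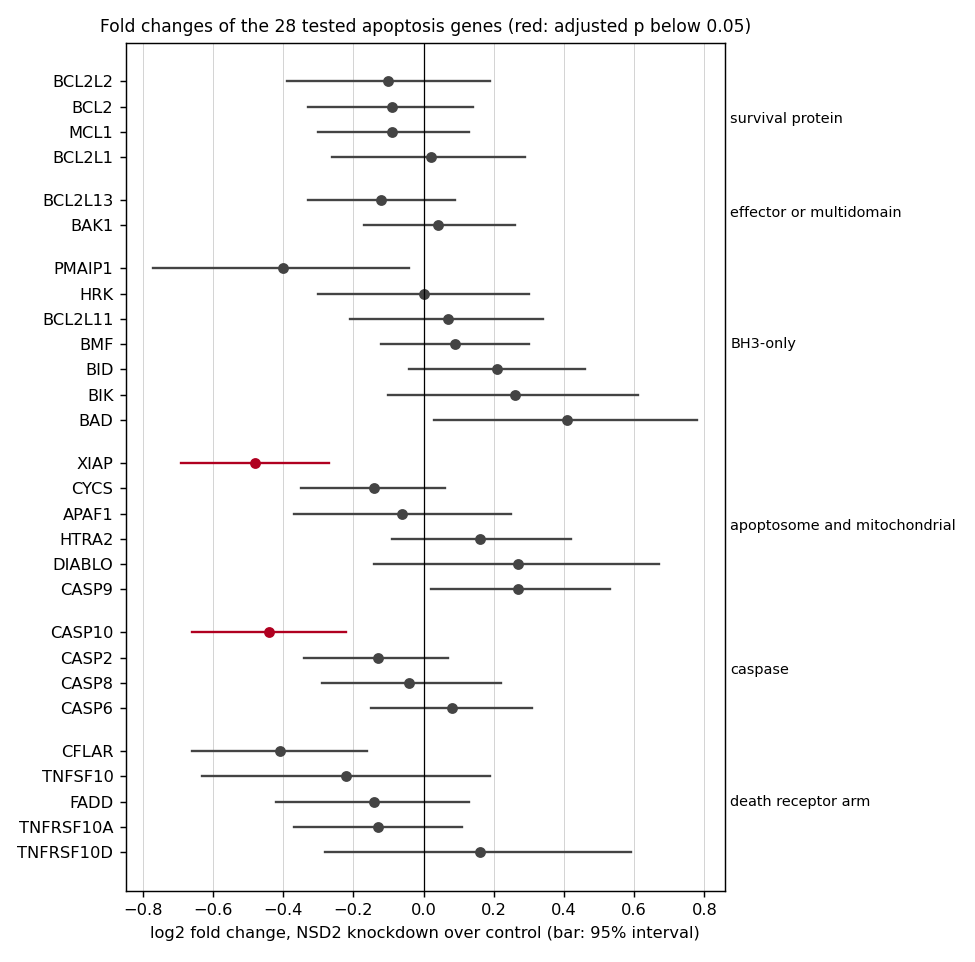
Log2 fold change (NSD2 knockdown over control) of each of the 28 tested genes, grouped by role, with points for the estimate and bars for the 95% interval. The intervals of XIAP (-0.69 to -0.27) and CASP10 (-0.66 to -0.22), in red, lie below zero and passed the adjusted threshold, while those of CFLAR, PMAIP1, BAD and CASP9 leave out zero without passing it.

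XIAP, which binds and blocks active caspases, gave the larger of the called falls. It lies on the X chromosome (ENSG00000101966, GRCh37, 122993574 to 123047829) and shares no exon base with another annotated gene. It measured 107.5 and 117.8 CPM in the controls versus 80.8 and 80.7 CPM. Both knockdown libraries were below both controls, and they differed from each other by less than the controls did. Fragments per library ran from 3909 to 5553. The means were 113 ± 7.25 and 80.8 ± 0.0968 CPM (SD, n = 2 each), a log2 fold change of -0.48 (SE 0.0937, adjusted p = 0.0167). The call held in each of the 9 alternatives run without a replicate block, with adjusted p from 3.65e-04 to 0.0461. The size was -0.34 with GC and length terms. The transcripts of XIAP have a GC content of 40.2%, below the median of 49.1% over the tested genes.

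RefSeq lists several starts for XIAP. The promoter windows at the first and the last of them (GRCh38.p14, plus strand, 250 bases before to 50 after each start) are shown because, of the 31 genes, XIAP is the one whose call held in every setting run here. Capitals mark a GC box, and the windows lie at chrX:123859458-123859757 and chrX:123859803-123860102.
XIAP, first start: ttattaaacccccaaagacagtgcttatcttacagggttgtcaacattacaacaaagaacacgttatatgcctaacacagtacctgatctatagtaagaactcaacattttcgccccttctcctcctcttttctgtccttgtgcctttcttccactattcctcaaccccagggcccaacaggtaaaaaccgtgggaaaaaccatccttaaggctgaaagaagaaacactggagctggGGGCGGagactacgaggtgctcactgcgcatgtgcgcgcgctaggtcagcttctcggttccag
XIAP, last start: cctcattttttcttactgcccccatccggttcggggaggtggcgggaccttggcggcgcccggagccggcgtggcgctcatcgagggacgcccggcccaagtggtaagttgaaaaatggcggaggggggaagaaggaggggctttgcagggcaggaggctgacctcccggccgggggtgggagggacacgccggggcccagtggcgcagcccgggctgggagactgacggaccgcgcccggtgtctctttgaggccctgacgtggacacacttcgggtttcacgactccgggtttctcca
The GC box was searched as the letters GGGCGG on both strands. It occurs 1 time in the first window and 0 times in the second, and 45% of all 35116 promoter windows of that length hold it. The letters CCAAT, found on either strand in 34.6% of all windows, were in neither. The TATA box, searched as TATAAA and held by 11.5%, and the ETS motif, searched as CCGGAAG and held by 10.3%, were in neither window as well. A window between them, at chrX:123859564-123859863, overlaps both and holds 2 GC boxes, 17 CpG dinucleotides and none of the other motifs. The windows shown hold 10 and 27 CpG dinucleotides, where the median window holds 14, so the starts differ in base composition. The counts per gene do not say which start was used. No promoter is shown for CASP10.

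CASP9, DIABLO and HTRA2, whose proteins act with or against XIAP, had log2 fold changes above zero, and none passed the test. CASP9, the initiator caspase of the apoptosome, stood at 14.7 and 13.6 CPM in the controls versus 17.2 and 17.1 CPM. The groups did not overlap, with a log2 fold change of 0.27 (SE 0.116, adjusted p = 0.200). DIABLO, the XIAP antagonist, was at 4.29 and 3.52 against 5.005 and 4.40 CPM, and HTRA2, a mitochondrial protease with the same action, at 28.5 and 24.05 against 29.8 and 29.1 CPM. Their log2 fold changes were 0.27 (adjusted p = 0.426) and 0.16 (adjusted p = 0.443). DIABLO shares 22.0% of its exon bases and HTRA2 36.9% with other genes, whose fragments cannot be told apart without strand.

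Per kb of exonic length, the ratio of XIAP to CASP9 was 4.26 and 5.05 in the controls versus 2.74 and 2.76. The ratio of DIABLO to XIAP was 0.0604 and 0.0452 against 0.0937 and 0.0825. In both ratios the groups did not overlap. That follows from the single genes, with XIAP below the controls and CASP9 and DIABLO above them in both knockdown libraries. The ratios are given as values, with no test. CYCS, which encodes cytochrome c, was at 406 and 403 against 366.5 and 367 CPM (log2 fold change -0.14, 95% interval -0.35 to 0.06). CYCS has processed copies elsewhere in the genome, so part of its fragments may be uncertain. APAF1, the scaffold of the apoptosome, was at 11.4 and 13.95 against 11.95 and 12.3 CPM and the groups overlapped.

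CASP10, an initiator caspase of the death receptor complex, was the other gene that fell (ENSG00000003400, chromosome 2, 202047604 to 202094129). It stood at 76.1 and 80.55 CPM in the controls versus 61.3 and 54.3 CPM, with no overlap. The means were 78.3 ± 3.13 and 57.8 ± 4.92 CPM (SD, n = 2 each), and the log2 fold change was -0.44 (SE 0.0987, adjusted p = 0.0301). CASP10 missed the threshold when knockdown library 2 was left out (-0.36, adjusted p = 0.237) and when GC and length terms were fitted (-0.31, 0.0708). Over the alternatives without a block, the adjusted p of CASP10 lay between 0.00207 and 0.237. No exon base of CASP10 is shared with another gene.

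CASP10 lies between its relatives CFLAR and CASP8. The gap from CFLAR to CASP10 is 18571 bp and that from CASP10 to CASP8 is 4037 bp (GRCh37). CFLAR, the catalytically inactive relative that restrains caspase-8, was at 92.6 and 92.5 CPM in the controls versus 77.1 and 62.3 CPM. Both knockdown libraries lay below the controls, but apart from each other. The log2 fold change was -0.41 (SE 0.113), with a 95% interval of -0.66 to -0.16, and the adjusted p of 0.0660 was above the threshold. It passed with DESeq2 (-0.40, adjusted p = 0.0375) and with no filter on low counts (-0.41, 0.00473). It also passed when control library 1 (-0.40, 0.0234), control library 2 (-0.42, 0.0323) or knockdown library 1 (-0.57, 0.00788) was left out. Leaving out knockdown library 2 gave -0.27 (adjusted p = 0.507), and GC and length terms gave -0.23 (0.220). CFLAR shares 22.3% of its exon bases with an antisense gene and a pseudogene.

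CASP8, the central initiator of the receptor arm, was at 103 and 120 CPM in the controls versus 99.8 and 117 CPM. In both groups number 2 was the higher, and the groups overlapped (log2 fold change -0.04, 95% interval -0.29 to 0.22). The ratio of CASP10 to CASP8 per kb, chosen after the values were seen, was 0.667 and 0.606 in the control libraries and 0.554 and 0.418 in those labelled knockdown. That of CFLAR to CASP8 was 0.607 and 0.521 against 0.522 and 0.359, which overlapped. CASP6, an executioner caspase, was at 43.6 and 46.3 against 44.3 and 50.7 CPM, and CASP2, an initiator outside both arms, at 98.65 and 105 against 95.6 and 89.8 CPM. Neither passed the test (95% intervals -0.15 to 0.31 and -0.34 to 0.07).

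**Figure D2:**
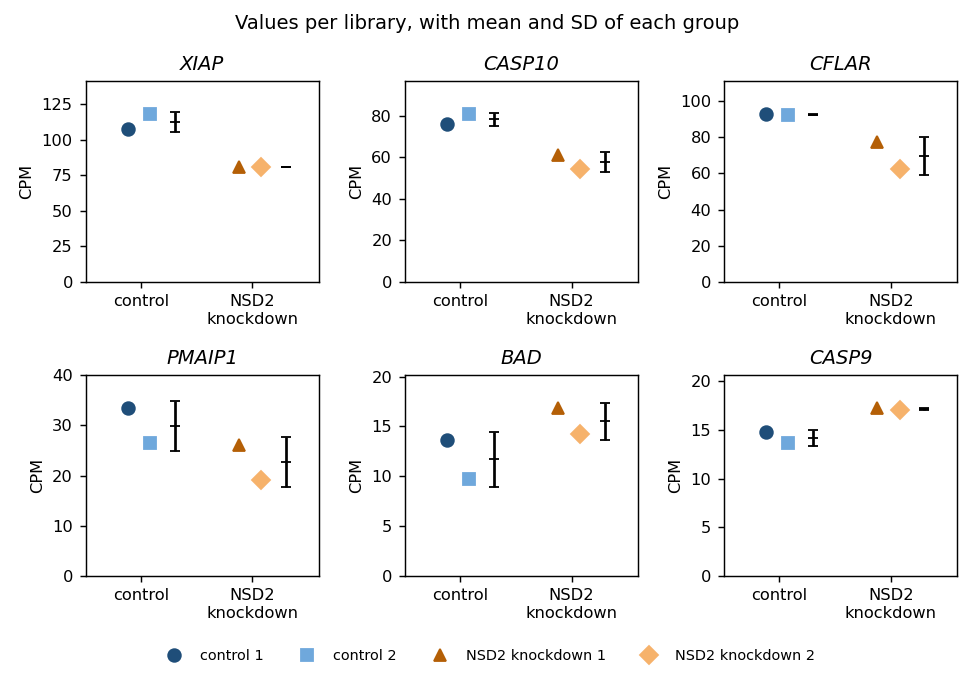
CPM of XIAP, CASP10, CFLAR, PMAIP1, BAD and CASP9 in each library, with the mean and SD of each group (n = 2) as bars beside the points. The 6 genes are the members with an unadjusted p below 0.05, as had 3865 of all 17172 genes tested. The groups do not overlap in any of the 6, as in 53.2% of all genes tested, and only XIAP and CASP10 passed the adjusted threshold. In PMAIP1 and BAD the libraries of a group are spread widely, with control library 2 of PMAIP1 at 26.4 CPM beside 26.2 CPM in knockdown library 1.

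Of the 5 survival genes of the BCL2 family, 4 were tested and 0 passed in either direction. MCL1 was at 734 and 703 CPM in the controls versus 689 and 665 CPM. The knockdown libraries lay below the controls by little, and the log2 fold change of -0.09 (95% interval -0.30 to 0.13, adjusted p = 0.644) did not pass the test. BCL2L1, which encodes BCL-XL, was at 289 and 332 against 283 and 345 CPM (95% interval -0.26 to 0.29). In both groups number 2 was the higher. BCL2 was at 69.4 and 62.5 against 65.9 and 57.7 CPM (95% interval -0.33 to 0.14), with number 2 the lower in both groups.

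BCL2L2, which encodes BCL-W, was at 9.36 and 9.69 against 8.89 and 8.86 CPM (95% interval -0.39 to 0.19). It shares 24.3% of its exon bases with other genes, among them its read-through gene BCL2L2-PABPN1. BCL2A1, the survival protein of activated lymphocytes, was not tested, with 3 fragments in each control library and 0 and 4 in those labelled knockdown. The ratio of BCL2 to MCL1 per kb was 0.0521 and 0.0489 in the control libraries and 0.0527 and 0.0478 in the others, and that of BCL2L1 to MCL1 was 0.501 and 0.601 against 0.522 and 0.661. Both ratios overlapped between the groups. A test that was missed does not show that the levels were equal, and the intervals give the sizes that these libraries allow.

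Per kb of exonic length, MCL1 was the most abundant of the genes in the control libraries, at 170 ± 5.11 CPM per kb (SD, n = 2), higher than 98.9% of the tested genes. BCL2L1 (93.8 ± 9.21 CPM per kb) and CYCS (90.8 ± 0.528 CPM per kb) followed, and their ranges overlapped. BAK1 (33.1), BMF (28.5) and CASP6 (23.2 CPM per kb) came next, each apart from the next gene in the order. From CASP8 at 16.3 to XIAP at 12.5 CPM per kb lay 6 genes whose neighbouring ranges overlapped, with BID, PMAIP1, TNFRSF10A and CASP2 between them. BCL2, at 8.60 ± 0.640 CPM per kb, stood far below MCL1. DIABLO, at 0.655 CPM per kb, and the TRAIL gene TNFSF10, at 1.24 CPM per kb, were the lowest of the 28, at the 24.4 and 34.0 percentiles of all genes tested. Levels per kb divide by the full exonic length, also where exon bases are shared with other genes, 22.0% of them for DIABLO. The part of such sharing in the order was not tested.

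**Figure D3:**
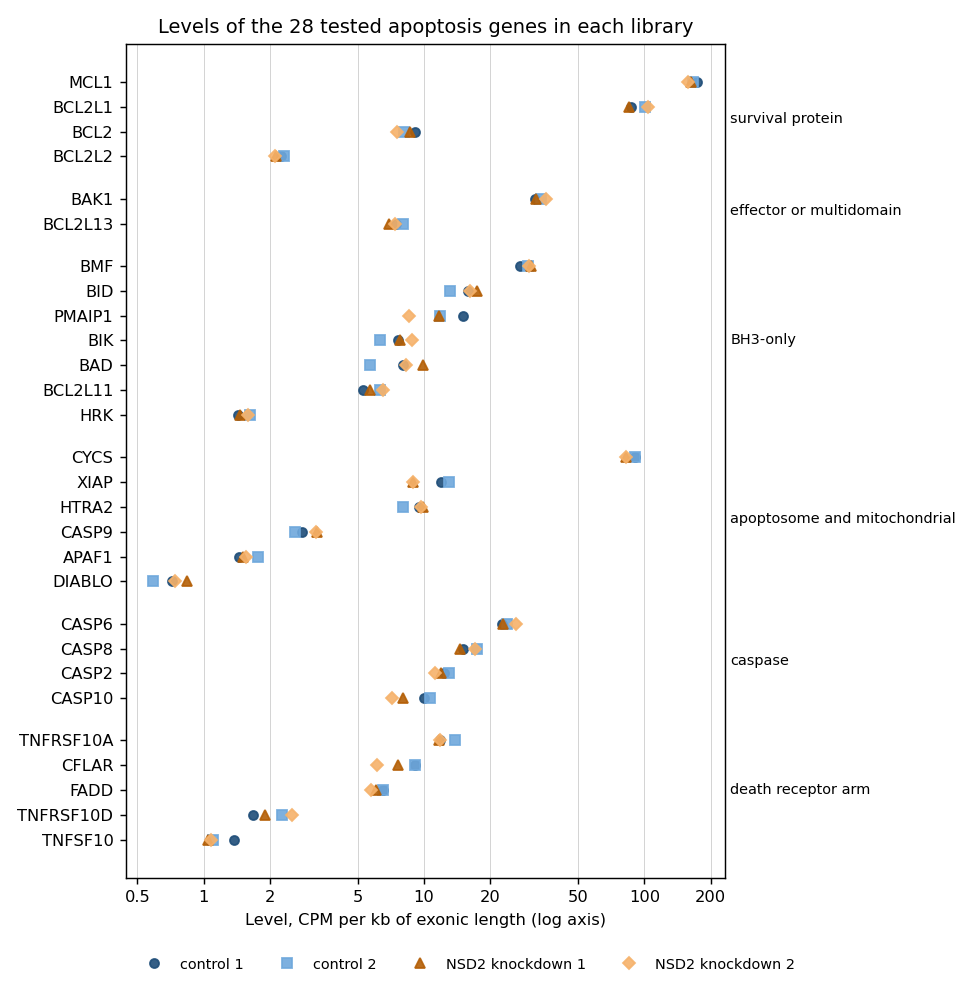
Level of each of the 28 tested genes in each of the 4 libraries, in CPM per kb of exonic length on a log axis, grouped by role and ordered by the mean of the control libraries. The genes span from 0.655 (DIABLO) to 170 (MCL1) CPM per kb in the control mean, a range far wider than the differences between the libraries of any gene.

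The effector BAK1, which forms the pore in the outer mitochondrial membrane, was at 72.6 and 77.3 CPM in the controls versus 73.3 and 81.1 CPM. The groups overlapped, with a 95% interval of -0.17 to 0.26 for the log2 fold change. BCL2L13, a BCL2 relative of the outer mitochondrial membrane, was at 56.2 and 60.4 against 52.0 and 55.35 CPM (95% interval -0.33 to 0.09). BOK, a further effector, was not tested, with 1 and 2 fragments in the control libraries and 0 and 2 in the others.

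The BH3-only genes were all tested, and 0 of 7 passed in either direction. Their log2 fold changes ran from -0.40 to 0.41, with 5 above zero and 2 below. BAD, which binds BCL2 and BCL-XL and is held in check by growth factor signals, was at 13.65 and 9.76 CPM in the controls versus 16.8 and 14.2 CPM. Both knockdown libraries lay above both controls. The log2 fold change was 0.41 (SE 0.169, adjusted p = 0.196), with a 95% interval of 0.03 to 0.78. BAD passed when control library 1 was left out (0.67, adjusted p = 0.00360), and leaving out control library 2 gave 0.18. BAD shares 23.7% of its exon bases with GPR137.

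PMAIP1, which encodes NOXA, the partner and antagonist of MCL1, was at 33.4 and 26.4 CPM in the controls versus 26.2 and 19.1 CPM. The highest knockdown library was just below the lowest control. The log2 fold change was -0.40 (SE 0.163, adjusted p = 0.182), with a 95% interval of -0.77 to -0.04. PMAIP1 also differed between library numbers, with number 2 below number 1 by a log2 ratio of -0.40 (adjusted p = 0.0156), a comparison in which 3.54% of all genes were called. PMAIP1 passed when control library 2 (-0.57, adjusted p = 0.0128) or knockdown library 1 (-0.64, 0.00578) was left out, and with no filter on low counts (0.0231). Leaving out control library 1 gave -0.22, and leaving out knockdown library 2 gave -0.20.

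BID, which links caspase-8 to the mitochondria, was at 70.0 and 57.8 against 77.1 and 71.1 CPM. Its log2 fold change of 0.21 (adjusted p = 0.294) passed when control library 1 was left out (0.36, 0.0385). BIK, a BH3-only protein of the endoplasmic reticulum, was at 7.24 and 6.02 against 7.445 and 8.40 CPM (adjusted p = 0.375). BMF, the most abundant BH3-only gene per kb, was at 149 and 161 against 166 and 164 CPM (95% interval -0.12 to 0.30). BCL2L11, which encodes BIM, was at 27.7 and 33.1 against 29.55 and 34.2 CPM (95% interval -0.21 to 0.34), with overlap between the groups. The ratio of BCL2L11 to MCL1 per kb was 0.0305 and 0.0380 in the control libraries and 0.0347 and 0.0415 in the others, also with overlap. HRK, known from neurons, was at 9.85 and 11.1 against 10.0 and 10.9 CPM.

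Of the receptor arm genes besides the caspases, 5 were tested, CFLAR among them, and none passed the test. TNFRSF10A, a TRAIL receptor that carries a death domain, was at 35.0 and 40.95 CPM in the controls versus 34.6 and 34.9 CPM (95% interval -0.37 to 0.11). TNFRSF10D, a TRAIL receptor with a truncated death domain that does not signal for death, was at 5.915 and 8.06 against 6.68 and 8.86 CPM. The groups of TNFRSF10D overlapped, and its ratio to TNFRSF10A per kb was 0.141 and 0.164 against 0.161 and 0.212. TNFSF10, the gene of TRAIL, was at 4.77 and 3.82 against 3.64 and 3.74 CPM (adjusted p = 0.524). FADD, the adaptor between receptor and caspase, was at 12.01 and 11.98 against 11.1 and 10.6 CPM (95% interval -0.42 to 0.13). FADD shares 54.9% of its exon bases with another gene. FASLG, the Fas ligand gene of cytotoxic lymphocytes, had 0 fragments in every library, which allows up to 0.0636 CPM (3 fragments in the shallowest library, for counting error only).

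**Figure D4:**
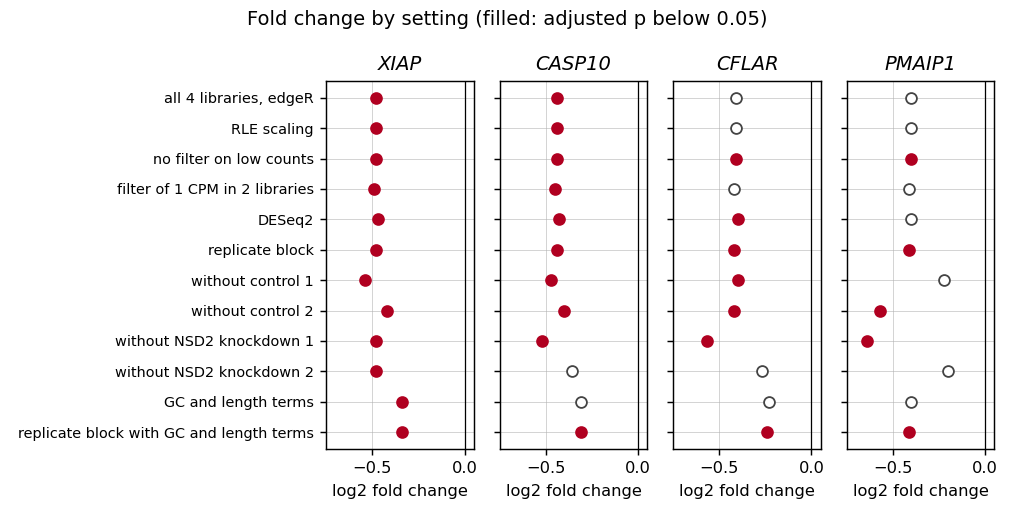
Log2 fold change of XIAP, CASP10, CFLAR and PMAIP1 (NSD2 knockdown over control, horizontal axis) under each setting (a line each), with filled red points where the adjusted p was below 0.05. XIAP is filled on every line, CASP10 is open when knockdown library 2 was left out (-0.36) and with GC and length terms (-0.31), and PMAIP1 spreads from -0.64 to -0.20 with the library left out.

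Of 67 further apoptosis genes found in the files, 56 were tested, with 3 called higher and 2 lower. Among these, BIRC7 and TNFSF15 passed the filter on low counts only through the group where they are high. With the filter of 1 CPM in 2 libraries neither was tested, and BNIP2, TNFRSF21 and FAIM were the genes called. Their median log2 fold change was 0.08. Across all genes tested, 1.74% were called higher and 4.19% lower, 5.93% in either direction. TNFRSF21, which encodes death receptor 6, rose from 37.4 and 34.4 CPM in the controls to 51.9 and 53.65 CPM (log2 fold change 0.55, adjusted p = 0.0100). It passed under each alternative run. FAIM, an inhibitor of receptor-induced apoptosis, rose from 13.1 and 12.4 to 17.9 and 17.8 CPM (0.48, adjusted p = 0.0378), and it missed the threshold when control library 2 (0.0664), knockdown library 1 (0.105) or knockdown library 2 (0.158) was left out. BIRC7, which encodes the inhibitor of apoptosis ML-IAP, had 4 and 2 fragments in the control libraries and 45 and 35 in the others. It entered the test only through the libraries labelled knockdown. Its call (adjusted p = 0.00302 by the edgeR test) is therefore not taken as support for a rise.

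BNIP2, a BCL2-interacting protein gene, fell from 82.5 and 85.4 to 57.3 and 64.4 CPM (-0.46, adjusted p = 0.0228), and it missed the threshold when knockdown library 1 was left out (-0.38, 0.133) or GC and length terms were fitted (-0.35, 0.0521). TNFSF15, the gene of the ligand TL1A, had 12 and 21 fragments in the control libraries and 3 in each of the others. It entered the test only through the controls. Its call (adjusted p = 0.0351 by the edgeR test) is therefore not taken as support for a fall. The call was also lost when control library 2 (log2 fold change -1.98), knockdown library 1 (-2.56) or knockdown library 2 (-2.41) was left out.

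In the authors' deposited table, with M2 set against LUC by its header, 0 of the 28 members with an adjusted p-value were below 0.05, against 351 of 18997 genes. XIAP had a log2 fold change of -0.46 (SE 0.154, adjusted p = 0.106) in the authors' deposited table, and CASP10 had -0.42 (SE 0.165, adjusted p = 0.275). CFLAR had -0.39 (adjusted p = 0.942) there, and BAD 0.42 (adjusted p = 0.774). The base mean of HRK in the authors' deposited table was 1306, while no library here held more than 592 of its fragments, and which libraries that model held is not given in the sources used here.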

How the data were processed

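The 4 KMS11 libraries were prepared from 1 µg of RNA each (TruSeq, Illumina). The authors deposited, for each library, unscaled counts of fragments over Ensembl genes. Per the submitters' processing notes, Trim Galore 0.3.7, STAR 2.5.3, Picard and featureCounts of Subread 1.4.6 were used on GRCh37. Per the file headers, strand was not used and duplicates had been removed. The deposited table adds a log2 fold change with its error, p-values and a base mean (a signal scaled by size factors, per the file headers), from DESeq2. The exonic lengths and gene coordinates come from it too. Its 4 count columns were not used, and 1 blank line per file was left out.

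Groups were compared in edgeR 4.0.16 (R 4.3.3) by its quasi-likelihood test, after TMM scaling and its default low-count filter, with no term besides the group. The Benjamini-Hochberg adjustment covered all 17172 genes that passed the filter, and the threshold was 0.05. Intervals are at 95%. The members and lists were chosen with earlier results of these data known. Values per library are given for members past the threshold, for the most abundant and the most changed member of each role, and for adjusted p up to 0.25, and the others were added after their values were seen. Of the other apoptosis genes, those past the threshold are named. The scripts were tested on simulated counts. Alternatives were RLE scaling, no filter, a filter of 1 CPM in 2 libraries, DESeq2 1.42.0, a replicate block and leaving out each library. GC content (GENCODE 29 transcripts, 96.3% of tested genes) and length terms were added after the data were seen. Promoters are from RefSeq (GRCh38.p14), which matched 25 of 31 members. Figures were drawn with matplotlib 3.10.9.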

Additional observations from a re-analysis of the deposited data

How the results depend on the processing

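Each fit that left out 1 library had 1 library in a group, which was assumed to vary like the other group. Of the members, XIAP kept its direction and its call in every setting run. CASP10 kept its direction, as did all tested members but those named below whose sign turned. The number of members called lower was 4 with no filter, 1 with GC and length terms and 1 to 4 when 1 library was left out, and the number called higher was 0 to 2 when 1 library was left out. Over all genes, 658 were higher and 1490 lower with no filter, 668 were higher with GC and length terms, and 173 to 682 were higher and 649 to 1342 lower when 1 library was left out. Among the other apoptosis genes, 7 were higher with no filter, 6 with DESeq2 and 6 with GC and length terms, and 1 was lower with the filter of 1 CPM, with DESeq2 and with GC and length terms. There were 3 to 5 higher and 0 to 3 lower when 1 library was left out.

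The log2 fold change of NSD2 passed with no filter (-0.32, adjusted p = 0.0173), ran from -0.50 to -0.12 when 1 library was left out (past the threshold in the fits that drop control library 1 or knockdown library 2) and was 0.02 with GC and length terms. The cause was not tested. With those terms the sign also turned, without a call, for BCL2 (0.03), BCL2L13 (0.02), HRK (0.14), APAF1 (0.06), CASP2 (0.02) and CASP8 (0.06), and HRK was 0.01 with DESeq2. When 1 library was left out, it turned for BCL2L1 (-0.14 to 0.16), BAK1 (-0.04 to 0.12), BCL2L11 (-0.05 to 0.19), HRK (-0.08 to 0.08), APAF1 (-0.20 to 0.09), CASP6 (-0.03 to 0.18), CASP8 (-0.17 to 0.08) and TNFRSF10D (-0.07 to 0.39).

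The libraries of both groups share the numbers 1 and 2, but the labels name no shared culture or day. Deviations of same-numbered libraries correlated across genes with r = 0.236 (genes are not independent replicates). With the replicate block, 1327 genes were higher and 1992 lower, 1 member was higher and 4 were lower, with BAD (0.42, adjusted p = 0.00825), PMAIP1 (-0.41, 0.00256) and CFLAR (-0.42, 0.001755) passing beside XIAP and CASP10, 11 other apoptosis genes were higher, and NSD2 was at -0.32 (adjusted p = 0.0197). With the replicate block and GC and length terms together, 3242 genes were higher and 1890 lower, 5 members were higher and 4 lower, 19 other apoptosis genes were higher and 4 lower, and NSD2 was at 0.01. In that fit BCL2 was at 0.03, BCL2L13 at 0.02, HRK at 0.14, APAF1 at 0.06, CASP2 at 0.02 and CASP8 at 0.06. The 2 libraries per group limit the precision, as the intervals of the members show.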
